A study of Arabidopsis thaliana with 28 samples.

Results

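The fermentation genes described here are PDC2 (AT5G54960), which encodes a pyruvate decarboxylase, and AT4G17260, which encodes a lactate dehydrogenase and is named by its locus alone in the annotation used. They were chosen by locus to set the ethanol route of fermentation beside the lactate route in the root. Each gene had 1 probe set among the 13513 probe sets that the annotation gives to 1 named gene, on an array of 22810 probe sets, so the members are 2 of the 13286 genes with a locus and such a probe set. In TAIR10.1, PDC2 lies on chromosome 5 from 22310553 to 22312832 and AT4G17260 on chromosome 4 from 9673897 to 9675540.

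The roots came from Arabidopsis thaliana seedlings, given as ecotype col2, raised on upright agar plates with 1% sucrose at 22 °C and 12 h of light a day. At 10 days after germination (another label gives an age of 2 weeks) all seedlings, the controls included, went into the dark under a stream of gas with 350 ppm CO2 and nitrogen as the balance. The gas held 1%, 4%, 8% or 21% oxygen, 21% being the normal air control, and roots were frozen after 0.5, 2 or 48 h. Total RNA of whole roots went onto 28 single-colour arrays, 2 or 3 for each of the 12 groups, and the arrays are told apart by letters (A to G) whose meaning the labels do not give. No label says that replicates were separate cultures, so the p-values measure the spread between these arrays, which may be technical. In RNA of a whole root, more of the cells that express a gene and more RNA per cell cannot be told apart.

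When oxygen runs short, respiration slows and cells depend on glycolysis, which needs a supply of NAD+. Pyruvate decarboxylase turns pyruvate into acetaldehyde, which alcohol dehydrogenase reduces to ethanol, and this second step returns NAD+. Lactate dehydrogenase reduces pyruvate to lactate and returns NAD+ in a single step. Both routes are long known from oxygen-starved plant roots, and both start from the same pyruvate.

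The values are MAS5 signals, a linear brightness per probe set, scaled by array to a common trimmed mean. Signals of different probe sets have no common scale, so the level of PDC2 is not set against that of AT4G17260. Changes are log2 differences of signal + 6, fitted with limma over all 28 arrays, with the standard error (SE) of the fit and p-values adjusted by Benjamini-Hochberg over the 13513 probe sets. A value passed where its adjusted p was under 0.05. The comparisons of 1%, 4% and 8% with normal air at one duration share the same control arrays. How precise a value can be is set by the 2 or 3 arrays behind it.

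The 3 arrays of letter B, all from 48 h at 4%, 8% and 21% oxygen, stood apart. Their lower quartile was 14.7 to 15.7 and their highest signal 11589 to 16529.7, against 6.25 to 10.2 and 3774 to 6389 on the other 25 arrays. The changes of 48 h against normal air, and the values that moved by over 1.5 times, are therefore also given without them. At 4% for 48 h only array F is then left. One of them, at 8%, has the word control in its treatment text, but was kept at 8% on the strength of its title and of the oxygen stated for it. Of 12 root markers 2 were among the named probe sets, PYK10 at 2715 to 8962 and the root hair gene EXPA7 at 14.4 to 153, and of 10 leaf markers 1 was, RCA at 28.3 to 237.

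Both genes were measured in normal air. PDC2 read 200.1, 189.8 and 186 on arrays C, F and G of 0.5 h, 170.2, 217 and 175 on D, E and F of 2 h, and 161, 128 and 112 on A, B and F of 48 h. The ranges of 0.5 and 2 h overlapped, and all 3 arrays of 48 h were below them. AT4G17260, on the same arrays in the same order, read 139, 144 and 116 at 0.5 h, 141, 135 and 134 at 2 h and 80.7, 87.0 and 71.7 at 48 h. Its arrays of 48 h were also all below those of 2 h, as were those of 10.5% of probe sets. From 2 to 48 h in normal air AT4G17260 fell by a log2 of 0.74 ± 0.177 (SE, adjusted p = 0.0176 in limma), a comparison in which 3.11% of probe sets passed as lower. The fall of AT4G17260 did not pass without any one of 5 control arrays, which were D, E and F of 2 h and A and F of 48 h (adjusted p up to 0.0662), and its size then lay within -0.67 to -0.75. For PDC2 the value was -0.48 ± 0.346 (SE, adjusted p = 0.489), which did not pass.

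After 2 h of lowered oxygen both genes stood in order of the oxygen level, highest at 1%. PDC2 read 1372 and 1614 at 1% (arrays E and F), 925 and 781 at 4% (D and F) and 295 and 389 at 8% (C and F). No 2 oxygen levels of 2 h overlapped for PDC2, and the lowest array at 1% was 6.31 times the highest control array. AT4G17260 read 812 and 853 at 1%, 582 and 433 at 4% and 254 and 267 at 8%, on the same arrays in the same order. Its 4 levels did not overlap either, and its lowest array at 1% was 5.76 times the highest control array. All low-oxygen arrays above all controls was seen in 9.81%, 6.9% and 6.76% of probe sets at 1%, 4% and 8%. The 4% arrays were above all 8% arrays in 10.9% of probe sets, and the 1% arrays above all 4% arrays in 12.3%.

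**Figure D1:**
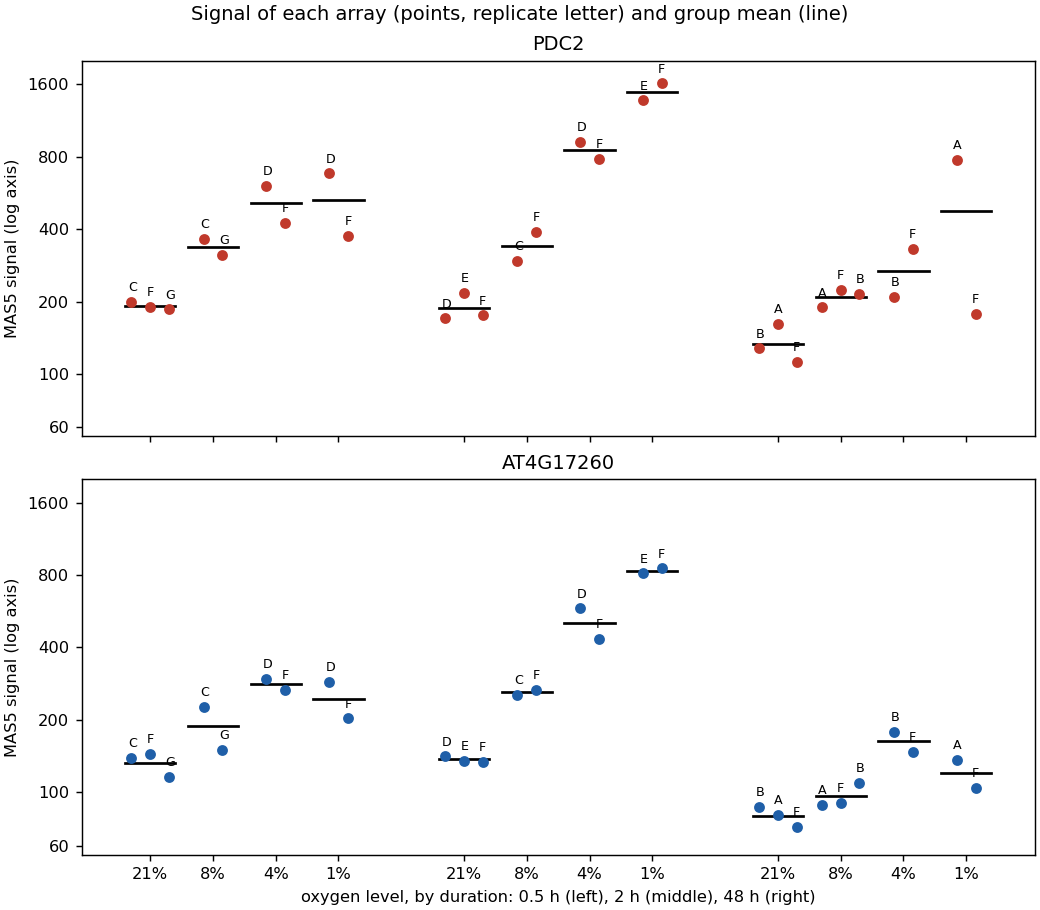
MAS5 signal of PDC2 (top) and AT4G17260 (bottom) on a log axis in the 12 groups, with 1 point per array marked by its replicate letter and a line at the group mean. After 2 h the 4 oxygen levels do not overlap for either gene, and after 48 h at 1% the PDC2 arrays lie far apart, at 779 and 178.

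Of the measured markers of cell types, only EXPA7 was apart from its controls at 1% for 2 h. It read 53.9 to 57.7, against 93.3 to 115 in normal air. The 1% arrays were below all controls in 11.1% of probe sets. PYK10 read 2770 to 3257 against 2715 to 3610, with overlapping ranges. The mean of RCA was 159 against 80.2, also with overlapping ranges. The part of cell types in the changes of PDC2 and AT4G17260 was not tested.

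In limma, both genes rose at 1% and 4% for 2 h, where 0.34% and 0.126% of probe sets passed as higher. PDC2 was 7.76 times its control at 1% and 4.45 times at 4%, as folds of signal + 6 (adjusted p = 0.000197 and 0.0171). AT4G17260 was 5.87 times its control at 1% and 3.56 times at 4% (adjusted p = 1.27e-07 and 5.20e-05). The standard error of a log2 change was 0.387 for PDC2 and 0.198 for AT4G17260, so the smaller folds of AT4G17260 had the smaller adjusted p. The call of PDC2 at 4% did not pass without the 4% array D or F or the control array D or F, with adjusted p of 0.471, 0.198, 0.112 and 0.0999 and log2 changes within 2.03 to 2.27. At 8% for 2 h PDC2 had a log2 change of 0.84 and AT4G17260 one of 0.90 (adjusted p = 0.388), and neither passed in a comparison where 0.0222% of probe sets did. With the letter as a fixed or random block AT4G17260 passed there (adjusted p = 0.0446 and 0.00859), where 0.0148% and 0.037% of probe sets passed as higher. With the block within the duration AT4G17260 at 8% did not pass, nor did PDC2 at 4% (adjusted p = 0.0589). At 2 h the letters did not pair the arrays consistently.

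The shortest exposure was 0.5 h. PDC2 then read 683 and 375 at 1% and 603 and 426 at 4% on arrays D and F, and 363 and 312 at 8% on C and G. Both members had every low-oxygen array above every control array of 0.5 h, as 8.87%, 7% and 3.21% of probe sets did at 1%, 4% and 8%. AT4G17260 read 288 and 203 at 1%, 296 and 267 at 4% and 226 and 150.4 at 8%. The 8% array G of AT4G17260 was 1.04 times the highest control array. The levels of 1% and 4% overlapped for both genes, and for AT4G17260 those of 1% and 8% did too.

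None of these 6 early changes passed in limma, and 5 of them had an unadjusted p under 0.05, as 1.75%, 1.44% and 0.555% of all probe sets did at 1%, 4% and 8%. PDC2 had log2 changes of 1.37, 1.37 and 0.79 ± 0.387 (SE) at 1%, 4% and 8%, with unadjusted p of 0.00202, 0.00199 and 0.0539 in limma. Those of AT4G17260 were 0.84, 1.05 and 0.46 ± 0.198 (SE), with adjusted p of 0.383 at 1% and 0.0634 at 4%. The value of AT4G17260 at 4% passed under quantile normalization (adjusted p = 0.0472) and with each array centred on its median (adjusted p = 0.0242). It also passed with the letter as a random block (0.90, adjusted p = 0.0117), a fit in which 0.0666% of probe sets passed as higher. These were 3 of 11 other settings, over which its values ran from 0.77 to 1.10. With the letter as a fixed block, or as a block within the duration, it did not pass. The shares of all probe sets that passed as higher were 0.0518%, 0.0444% and 0.0148%. As a share of its own change at 2 h, PDC2 had 46.4% after 0.5 h at 1%, 63.8% at 4% and 94.3% at 8%. For AT4G17260 these shares were 32.9%, 57.5% and 51.4%. They are ratios of fitted log2 changes of which most did not pass, and are given as a description.

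**Figure D2:**
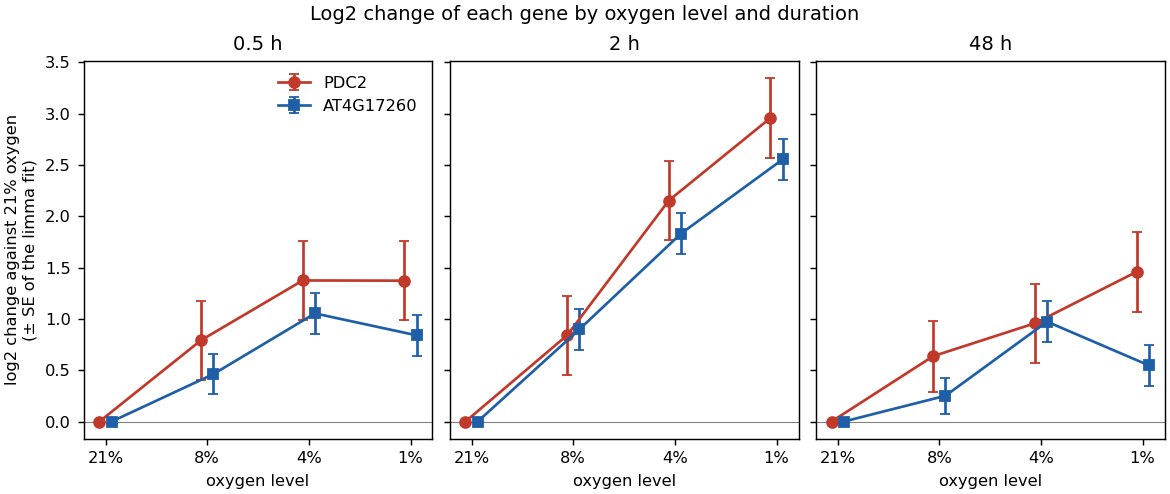
Log2 change of PDC2 and AT4G17260 against 21% oxygen by oxygen level, with a panel for each duration and bars for the SE of the limma fit. Both genes reach their largest change at 1% after 2 h, 2.96 and 2.55, and after 0.5 h neither gene is higher at 1% than at 4% by more than its SE.

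After 48 h the signals were lower and the arrays of 1 group disagreed. PDC2 read 779 on array A and 178 on array F at 1%, 208 and 330.2 on B and F at 4%, and 189, 224 and 215 on A, F and B at 8%. All of these were above the 3 control arrays, but array F at 1% was only 1.11 times the highest of them. AT4G17260 read 136 and 104 at 1%, 179 and 147 at 4% and 88.9, 90.6 and 109 at 8%. At 8% its lowest array was 1.02 times the highest control array. Groups that were apart in this way made up 3.38%, 5.19% and 1.23% of probe sets at 1%, 4% and 8%. For AT4G17260 the 4% arrays were all above the 1% arrays, as for 16.4% of probe sets, and for PDC2 these levels overlapped.

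PDC2 had log2 changes of 1.46 ± 0.387 (SE) at 1%, 0.96 at 4% and 0.64 ± 0.346 (SE) at 8% after 48 h, and none passed (adjusted p = 0.401 at 1%). The value at 1% was set by single arrays. It was 2.50 without array F (adjusted p = 0.000211) and 0.41 without array A. AT4G17260 had 0.55, 0.97 and 0.25, and none passed (adjusted p = 0.742 at 1% and 0.125 at 4%). Of these 6 values, 4 had an unadjusted p under 0.05, as 5.21%, 3.26% and 1.8% of all probe sets did at 1%, 4% and 8%. The shares of all probe sets that passed as higher were 0.074% at 1% and 0.037% at 4%. At 8% limma passed 0% of probe sets, with 243 at an unadjusted p under 0.05.

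Between the 1% arrays A and F of 48 h, the log2 difference was 2.09 for PDC2 and 0.37 for AT4G17260. Among 17 other genes known to answer low oxygen, 15 were higher on array A, with a median difference of 2.15, and the median of all probe sets was -0.06. These genes were listed with earlier results of these data known, so the count is only a description. The difference of PDC2 was close to the median of the 17 genes and that of AT4G17260 was smaller. Without the letter B arrays, the changes of 48 h at 1%, 4% and 8% were 1.43, 1.26 and 0.59 for PDC2. For AT4G17260 they were 0.61, 0.90 and 0.22. At 4% these changes rest on array F alone.

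By the correlation of deviations from group means, arrays of the same letter went together at 0.5 and 48 h, less clearly at 0.5 h. With the letter as a fixed block shared by all durations, AT4G17260 passed in limma after 48 h at 1%, with 0.62 ± 0.123 (SE, adjusted p = 0.0192). At 4% it passed with 0.98 ± 0.123 (SE, adjusted p = 0.00400). In that fit 0.807% and 0.141% of probe sets passed as higher at 1% and 4%. With the block within the duration the adjusted p were 0.0359 and 0.0142, where 97 and 16 of 13513 probe sets passed as higher. PDC2 passed at neither level with the letter as a fixed block. With the letter as a random block it passed at 1% for 48 h, with 1.38 (adjusted p = 0.0324), where 0.644% of probe sets passed as higher.

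The response to 1% oxygen was also compared between durations, as an interaction. That of AT4G17260 grew by a log2 of 1.71 from 0.5 to 2 h and changed by -2.01 from 2 to 48 h, both past the threshold of limma. The first did not pass in 8 of 10 runs without a single array, nor under quantile normalization, with a pseudocount of 1.5 or with only the arrays of the durations compared, and the second passed in all of these. Among all probe sets 0.0222% and 0.0444% of probe sets passed in those directions. For PDC2 the corresponding values were 1.58 and -1.50 ± 0.547 (SE), and neither passed. Whether the genes differ in these steps was not tested. The second value of PDC2 was -2.55 without the 48 h 1% array A (adjusted p = 0.00524) and -0.45 without array F. At 4% the responses changed by 0.78 in both genes from 0.5 to 2 h, and by -1.20 for PDC2 and -0.86 for AT4G17260 from 2 to 48 h. At 8% the values were 0.05 and -0.20 for PDC2 and 0.44 and -0.65 for AT4G17260. At these levels limma passed 0 probe sets, with 69 to 158 at an unadjusted p under 0.05.

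The log2 changes at 48 h were also taken as shares of those at 2 h. At 1% PDC2 stood at 49.3% of its 2 h log2 change and AT4G17260 at 21.4%. At 4% the shares were 44.5% and 53.1%, and at 8% they were 75.8% and 27.96%. Without the letter B arrays the shares were 48.5% and 23.8% at 1%, 58.4% and 49.0% at 4% and 70.5% and 24.8% at 8%. The order of the genes at 4% thus turned with these arrays, but the shares without them rest on array F alone at 4%. The share of PDC2 at 1% rests on 2 arrays that disagreed.

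The steps between neighbouring lowered levels were compared at each duration. From 8% to 4% the log2 step at 2 h was 1.31 ± 0.424 (SE) for PDC2 and 0.93 ± 0.217 (SE) for AT4G17260, and from 4% to 1% it was 0.80 and 0.72. After 0.5 h the step from 8% to 4% was 0.58 and 0.59, and the step from 4% to 1% was -0.00216 for PDC2 and -0.21 for AT4G17260. After 48 h AT4G17260 had 0.72 and then -0.43, being lower at 1% than at 4%, and PDC2 had 0.32 and then 0.50. The step of PDC2 from 4% to 1% at 48 h moved to -0.55 when array A of 1% was left out, and to 1.55 when array F was. Without the letter B arrays PDC2 had 0.67 from 8% to 4% and 0.18 from 4% to 1% at 48 h, with array F alone left at 4%. None of these 12 steps passed in limma, and 5 of them, 4 of AT4G17260 and the step of PDC2 from 8% to 4% at 2 h, had an unadjusted p under 0.05, as 0.599% to 4.81% of all probe sets did in the 6 comparisons. With the letter as a random block AT4G17260 passed from 4% to 1% at 2 h (adjusted p = 0.0446) and from 8% to 4% at 48 h (adjusted p = 0.0297), where 0.0592% and 0.074% of probe sets passed as higher. The letters did not pair the arrays of that 2 h step. Letter F, the only one they share, had a correlation of deviations from group means of -0.053 between 1% and 4%. Over all probe sets without the block, 0.0148% passed from 4% to 1% at 2 h and from 8% to 4% at 48 h, 0.0074% from 8% to 4% at 0.5 h and from 4% to 1% at 48 h, and 0% in the other 2 steps (limma, with 81 and 99 at an unadjusted p under 0.05).

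The changes of both genes were set against each other on each array, as log2(PDC2 + 6) minus log2(AT4G17260 + 6). At 1%, 4% and 8% for 0.5 h it exceeded that of normal air by 0.53, 0.32 and 0.33. The excess at 2 h was 0.40, 0.32 and -0.06, and at 48 h 0.91, -0.02 (0.36 without the letter B arrays, from array F alone) and 0.39. A positive value means that PDC2 changed more. In 5 of the 9 comparisons all low-oxygen arrays were above all control arrays. These were the 3 levels at 0.5 h and 1% and 4% at 2 h, and in the other 4 the arrays overlapped. At 4% the gaps were narrow, with the lowest low-oxygen array at 0.659 against 0.653 at 0.5 h and at 0.663 against 0.659 at 2 h. The 3 comparisons of a duration share their controls.

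In a single duration, 2 arrays against 3 cannot give an exact two-sided permutation p below 0.1, and the 9 values ranged from 0.1 to 1. Over the 3 durations together, with arrays reassigned within each duration, PDC2 changed more than AT4G17260 at 1%, by 0.62 in log2 (exact permutation p = 0.003, adjusted over 12 comparisons 0.036). At 4% the value was 0.21 (exact permutation p = 0.173) and at 8% 0.22 (exact permutation p = 0.065), which did not pass. The value at 1% was 0.33 without the 48 h 1% array A (exact permutation p = 0.0225, adjusted 0.267) and 0.59 without the letter B arrays (adjusted permutation p = 0.08). It passed in 3 of the 15 runs that left out a single array. This test exchanges arrays without regard to their letters. When only arrays of the same letter were paired, the value at 1% was 0.54, above 0 in 5 of 5 pairs, with an exact permutation p of 0.0625, the smallest that 5 pairs allow (adjusted over the 3 levels 0.0938). At 4% and 8% the paired values were 0.28 and 0.27, above 0 in 4 of 5 and in 6 of 6 pairs. The exact permutation p at 8% was 0.03125, the smallest that 6 pairs allow. Neither level passed after adjustment (adjusted permutation p = 0.125 and 0.0938).

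**Figure D3:**
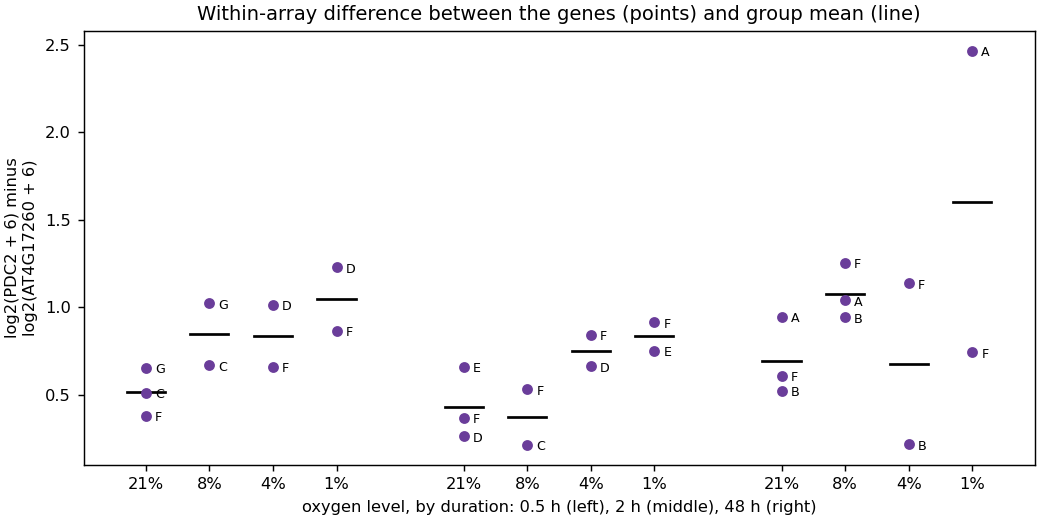
Within-array difference log2(PDC2 + 6) minus log2(AT4G17260 + 6) by oxygen level and duration, with 1 point per array and a line at the group mean. The low-oxygen arrays are above all controls at each level of 0.5 h and at 1% and 4% of 2 h, and the 1% arrays of 48 h lie farthest apart. The height of the axis also holds the probe sets' own brightness, so only differences between groups can be read.

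Over all 12 groups the highest mean signal was 11.2 times the lowest for PDC2 and 10.4 times for AT4G17260. The PDC2 means in order were 1493 ± 171 (SD, n = 2) at 1% for 2 h, 853 ± 102 at 4% for 2 h, 528.6 ± 218 at 1% for 0.5 h, 514 ± 126 at 4% for 0.5 h and 478 ± 425 at 1% for 48 h. They were followed by 342 ± 66.4 at 8% for 2 h, 337 ± 36.2 at 8% for 0.5 h, 269 ± 86.2 at 4% for 48 h and 209.5 ± 18.2 at 8% for 48 h. The controls closed the order with 192 ± 7.43, 188 ± 25.9 and 134 ± 24.8 at 0.5, 2 and 48 h. Of the 11 neighbouring pairs in this order, 3 had ranges that were apart. These were the first and second pair, and the last, which set the 48 h control below the 2 h control.

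For AT4G17260 the order began with 833 ± 29.0 (SD, n = 2) at 1% for 2 h, 508 ± 105 at 4% for 2 h, 282 ± 20.2 at 4% for 0.5 h, 260.2 ± 9.48 at 8% for 2 h and 245 ± 60.1 at 1% for 0.5 h. Then came 188 ± 53.5 at 8% for 0.5 h and 163 ± 22.4 at 4% for 48 h. The controls of 2 and 0.5 h, with 137 ± 3.59 and 133 ± 15.1, stood above the remaining groups of 48 h, which had 120.1 ± 22.8 at 1%, 96.2 ± 11.2 at 8% and 79.8 ± 7.71 in normal air. In 5 of 11 neighbouring pairs the ranges were apart and in 6 they overlapped. The means of AT4G17260 at 1% and 8% for 48 h were below its control means of 0.5 and 2 h, while every mean of PDC2 at lowered oxygen was above all of its control means. The single arrays of PDC2 did not all keep this order. Array F at 1% for 48 h read 178, below the 0.5 h controls of 186 to 200.1. The PDC2 ranges at 4% and 8% for 48 h overlapped that of the 2 h controls.

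The other measured genes on the lists of both routes passed in no comparison with normal air. In the ethanol route 3 of 10 listed genes had a named probe set, and beside PDC2 these were ALDH2C4, an aldehyde dehydrogenase, and ACS, which makes acetyl-CoA from acetate. At 1% for 2 h ALDH2C4 had a log2 change of 0.33 ± 0.510 (SE) and ACS one of -0.17 ± 0.263 (SE). In the lactate route 2 of 6 were measured, and AT5G06580, a D-lactate dehydrogenase that oxidizes lactate, had -0.16. The median of all probe sets was -0.02 in that comparison. The probe sets of alcohol dehydrogenase and of the other pyruvate decarboxylase genes were not analysed here. The step from acetaldehyde to ethanol is therefore not described by these values.

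Of 14 other genes listed as standing around pyruvate, 6 were measured. MAB1, a subunit of the mitochondrial pyruvate dehydrogenase, had -0.06 at 1% for 2 h. The acetyltransferase subunits of that complex, AT3G13930, AT1G54220 and LTA3, had -0.33, -0.25 and -0.13. PPDK, which interconverts pyruvate and phosphoenolpyruvate, had 0.01, and AT5G14590, whose use of pyruvate is uncertain, had -0.04. None of these 9 genes of the ethanol, lactate and pyruvate lists passed in limma in any of the 9 comparisons with normal air, and of the 81 values 0 had an unadjusted p under 0.05. Their changes lay within -0.76 (PPDK at 1% for 48 h) and 0.33 (ALDH2C4 at 1% for 2 h). The median over the 6 genes of the pyruvate list, AT5G14590 included, was -0.10 at 1% for 2 h.

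**Figure D4:**
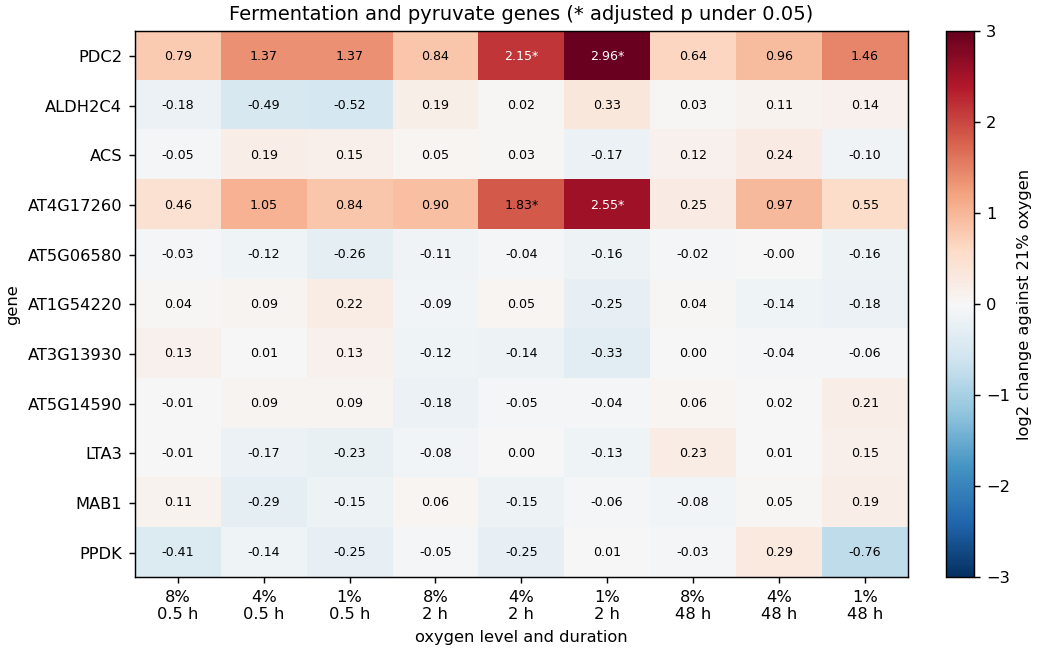
Log2 change against 21% oxygen of the measured genes of the ethanol and lactate routes and of other genes around pyruvate, in the 9 comparisons, with an asterisk where the adjusted p was under 0.05. Asterisks stand at PDC2 and AT4G17260 at 1% and 4% for 2 h, and the other 9 genes stay between -0.76 and 0.33.

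Other genes known to answer low oxygen were set beside the members, and 17 of 25 were measured. The list was drawn up with earlier results of these data known and is no independent evidence of a rise. At 2 h, 15, 13 and 3 of the 17 rose at 1%, 4% and 8%, with median log2 changes of 4.26, 3.23 and 1.99. Of all probe sets 0.34%, 0.126% and 0.0222% passed as higher there. Both members had smaller changes than these medians at each level. At 0.5 h 7, 6 and 1 rose, with medians of 2.44, 2.25 and 1.33, against 0.0518%, 0.0444% and 0.0148% of all probe sets. The 7 and 6 were all the probe sets that passed as higher at 1% and 4%. At 48 h 7, 4 and 0 rose, with medians of 1.96, 2.47 and 0.75, against 0.074%, 0.037% and 0% of all probe sets. None fell. The 4 with the smallest adjusted p at 1% for 2 h were AT3G27220 with 4.79, AT5G44730 with 3.89, AT3G23170 with 4.26 and AT4G33560 with 5.80 (adjusted p in limma from 1.12e-07 to 8.63e-06).

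The genes most like each member were ranked by Pearson's r of log2(signal + 6) over the 28 arrays, which share their labels and their scaling. For PDC2 they were AT5G10040 (r = 0.950), AT3G12150 (0.941), AT5G44730 (0.935), AT3G27220 (0.929) and AT4G24110 (0.911). AT4G17260 came at rank 7, with r = 0.902 and Spearman's rho = 0.863. For AT4G17260 they were AT5G44730 (r = 0.931), PDC2 (0.902), AT3G12150 (0.877), AT3G27220 (0.873) and AT4G14980 (0.862). The 99th percentile over all probe sets was 0.529 for PDC2 and 0.624 for AT4G17260.

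PDC2 and AT4G17260 kept an r of 0.839 without the 2 arrays farthest from the median. Over the 12 group means it was 0.941, and over arrays with their group means removed 0.508. In the last measure PDC2 had 0.850 with AT5G10040 and 0.842 with AT3G27220, and AT4G17260 had 0.807 with AT5G44730. The 99th percentiles over all probe sets in that measure were 0.649 and 0.706, so the value between both members lay below either.

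**Figure D5:**
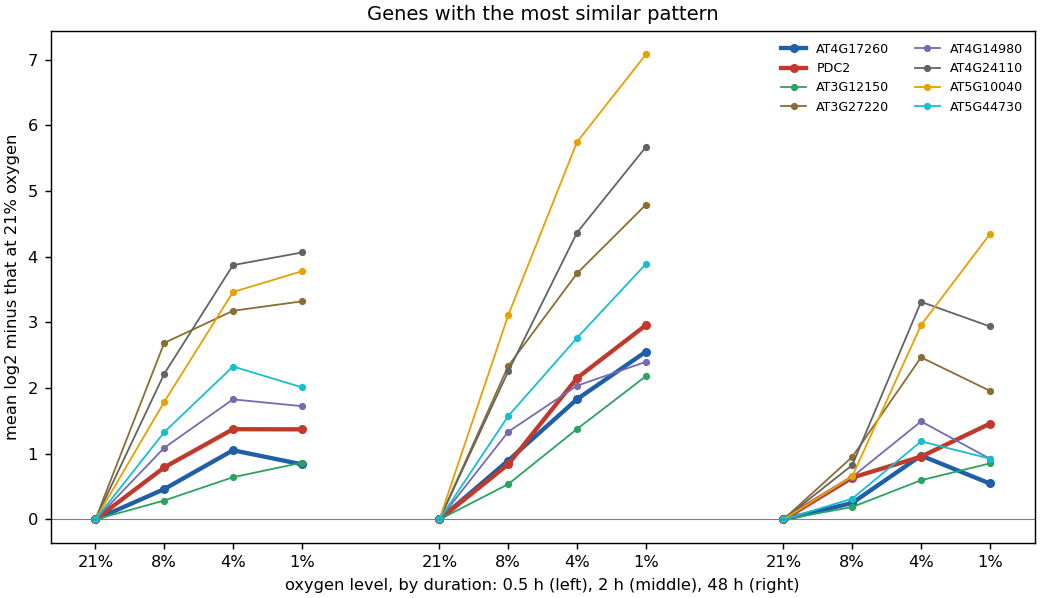
Group means of PDC2, AT4G17260 and the genes most like them over the 12 groups, as log2 change against normal air of the same duration. All profiles are highest at 1% for 2 h, and those of PDC2 and AT4G17260 are drawn with thicker lines.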

How the data were processed

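The deposited values are MAS5 signals, a linear intensity per probe set, computed by the authors with MAS5 per the submitters' processing notes. Its version is not given in the sources used here. In the deposited table the mean of each array's signals, trimmed by 2% at each end, was close to 100.01, and this scaling was kept. Of 22810 probe sets, 64 controls were left out, 503 carried several genes and 8730 carried none in the annotation. The remaining 13513 were tested as log2(signal + 6), 6 being near the 20th percentile of all values.

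Models had 1 mean for each of 12 groups over 28 arrays (16 residual degrees of freedom), from limma 3.58.1 (R 4.3.3), two-sided and with an intensity trend in eBayes, for 23 comparisons (9 with normal air, 6 dose steps, 6 interactions and 2 durations in air). The difference between the genes was tested by exact permutation of arrays within durations.

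The letters were checked as a pairing by the correlation of deviations from group means. It was over 0.1 in 6 of 6 same-letter pairs at 0.5 h (0.457 to 0.718), in 12 of 12 at 48 h (0.328 to 0.728) and in 5 of 8 at 2 h (-0.117 to 0.689). Among pairs of different letters it was over 0.1 in 7 of 24 at 0.5 h, 1 of 25 at 48 h and 7 of 22 at 2 h. The highest of these values were 0.464, 0.328 and 0.669. In a group of 2 arrays the deviations mirror each other, so the pairs are not independent. Since all same-letter pairs of 0.5 and 48 h were over 0.1, the block, fixed or random, is given beside results of these durations where it changes a call. Some block results of 2 h are given too, with the limit that the letters paired those arrays less consistently.

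The genes, gene lists and tests were chosen with earlier results of these data known. Genes named are both members, the 5 most similar to each, every measured gene of the ethanol, lactate and pyruvate lists, and the 4 low-oxygen genes with the smallest adjusted p at 1% for 2 h. Other settings tried were quantile normalization, median centring, pseudocounts of 1.5 and 24, a filter on the dimmest 40%, no trend, all 22746 probe sets that were not controls, only the durations compared, the letter as a block, and each array left out. Leaving out the letter B arrays and pairing arrays of the same letter in the difference between the genes were added after seeing the data.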

Additional observations from a re-analysis of the deposited data

Results flagged for a closer look

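Of the 6 interaction tests of each member, 2 passed, both for AT4G17260 at 1% oxygen. Its response was larger after 2 h than after 0.5 h by a log2 of 1.71 ± 0.280 (SE, adjusted p = 0.0374 in limma) and smaller after 48 h than after 2 h, by -2.01 ± 0.280 (SE, adjusted p = 0.00300). The second passed in all 10 runs without a single array. The first passed in 2 of 10, with values from 1.47 to 1.96 and adjusted p from 0.0264 to 0.430. The lowest of these values came without the 0.5 h 1% array F. No group of 4 or more arrays existed in which a single array could be tested as an outlier.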

How the results depend on the processing

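With 2 or 3 arrays a group, the calls of single genes near the threshold moved with the setting. Of 520 values of the members under other settings, 498 kept their direction and side of the threshold, as did 258 of 288 with a single array left out. The rises of both genes at 1% for 2 h and that of AT4G17260 at 4% for 2 h passed in every setting and without any single array. Quantile normalization and median centring moved the median of all probe sets at 1% for 48 h from -0.11 to -0.00256 and 0.06. Both settings align the distributions or medians of the arrays, so a shift of this kind is built into them.

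For AT4G17260, 4% for 0.5 h passed under quantile normalization (1.10), median centring (1.09) and a random letter block (0.90), and the larger response at 1% after 2 h than 0.5 h did not pass under quantile normalization (1.58), a pseudocount of 1.5 (1.73) or with only the durations compared (1.71). With the replicate letter as a block AT4G17260 passed at 8% for 2 h (1.01), at 1% for 48 h (0.62) and at 4% for 48 h (0.98), with the last pair also within the duration (0.62 and 0.98), and its 2 h minus 0.5 h value in normal air turned to -0.20. With a random block it passed at 8% for 2 h (0.95), 1% and 4% for 48 h (0.60 and 0.98), from 4% to 1% at 2 h (0.82) and from 8% to 4% at 48 h (0.72), and the air value was -0.084. PDC2 passed at 1% for 48 h with the random block (1.38) and did not at 4% for 2 h with the block within the duration (2.18). Its step from 4% to 1% at 0.5 h was 0.00846 under quantile normalization, and its 2 h minus 0.5 h value in air 0.065 under median centring. The block changed no other call of the members. The difference between the genes at 4% for 48 h turned to 0.031 with a pseudocount of 24 and 0.36 without letter B, from array F alone. Without letter B the value of 1% over all durations was 0.59 (adjusted permutation p = 0.08). With same-letter pairs as the replicate block that value was 0.54, and 5 pairs are too few to pass. Of the 5 most similar genes, PDC2 kept 3 by Spearman and 3 by group means, and AT4G17260 kept 2 by group means. The cause of these changes was not tested.

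Without single arrays the ranges were as follows for PDC2: 2.03 to 2.27 at 4% for 2 h, 0.41 to 2.50 at 1% for 48 h, -0.43 to 0.43 from 4% to 1% at 0.5 h, -0.55 to 1.55 for that step at 48 h, -0.00462 to 0.64 from 8% to 4% at 48 h, -2.55 to -0.45 for the 1% response from 2 to 48 h, -0.15 to 0.24 for the 8% response from 0.5 to 2 h, and -0.15 to 0.024 in air from 0.5 to 2 h. For AT4G17260 they were 1.47 to 1.96 for the 1% response from 0.5 to 2 h, -0.46 to 0.033 from 4% to 1% at 0.5 h, -0.045 to 0.11 in air from 0.5 to 2 h and -0.80 to -0.67 from 2 to 48 h. For the difference between genes they were 0.33 to 0.90 at 1% and 0.055 to 0.36 at 4% over all durations, -0.48 to 0.44 at 4% for 48 h and -0.22 to 0.10 at 8% for 2 h. At 4% over all durations it passed without the 48 h array B (adjusted permutation p = 0.03).

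Counts of probe sets that passed ranged over other settings from 44 to 224 at 1% for 2 h (46 as reported), from 0 to 307 at 1% for 48 h (13), from 0 to 35 at 4% for 48 h (5) and from 459 to 2698 in air from 2 to 48 h (739). In the exact permutation test of the difference between the genes, the smallest p that 2 against 3 arrays of a duration allow is 0.1. This limit does not hold for limma.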
